A study of Mus musculus with 6 samples.

Results

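Islr and 9 genes known as markers of mesenchymal progenitors were examined in undifferentiated mouse embryonic stem (ES) cells and in Pax7-GFP cells. The names are Islr, Fap, Pdgfra, Pdgfrb, Ly6a, Thy1, Osr1, Osr2, Postn and Mfap5. Islr was chosen by its log2 fold change, one of the largest rises between the same 6 arrays, and the other names were taken because connective tissue cells are known by them. Rows were found by an exact match of the gene symbol in the platform annotation. Of the 10 names, 9 were listed, each with 1 probe set, among 22180 genes tested. Ly6a, which encodes the surface protein Sca-1, was not listed there and was not analysed here.

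The study compared 3 arrays of pluripotent ES cells with 3 arrays of cells sorted for green fluorescence of a Pax7 reporter after 3 weeks of differentiation toward muscle, 1 array per sample. Per the labels, the sorting gate of a reporter line was set on its own undifferentiated culture. The sources used here do not name the line, say how many clones it stands for or say whether the ES cells passed through the sorter. The labels call the replicates biological but do not say how the cultures were kept apart, so a p-value here weighs a difference against sample-to-sample spread that may be technical. All values are RMA signals on the log2 scale, where a difference of 1 is a 2-fold difference, and the 3 arrays a group limit their precision. Each array measured many cells together, so a change in the number of cells of a type and a change in RNA per cell cannot be told apart.

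Mesenchymal progenitors are stromal cells of muscle and other organs that lie between the fibres and around vessels and make connective tissue. In muscle the fibro-adipogenic progenitors are usually recognised by the receptor Pdgfra and the surface protein Sca-1, and they lack Pax7, which marks the muscle stem cell. Islr, also called Meflin, is a small secreted or membrane-attached protein of leucine-rich repeats and an immunoglobulin domain that is known from mesenchymal stromal cells. Several of these genes are also active in the embryonic mesoderm from which muscle and its connective tissue both come.

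The labels were borne out by the muscle and pluripotency genes. The muscle regulators Pax7, Myf5 and Myod1 lay at 10.65 or above on every Pax7-GFP array and at 6.30 or below on every ES array, and Nanog and Sox2, which maintain pluripotency, lay at 11.21 or above on every ES array and at 5.26 or below on every Pax7-GFP array. Array medians ran from 5.61 to 5.69.

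Of the 9 measured genes, Islr, Fap, Osr1, Pdgfrb, Pdgfra and Postn were higher in Pax7-GFP cells, Mfap5 was lower, and Thy1 and Osr2 were not called. To be called, a gene needed an adjusted p below 0.05 together with a change of 2-fold or more in either direction. Leaving out Islr, 5 of 8 rose and 1 fell, with a median log2 fold change of 1.28. With Islr counted, whose separation follows from its choice, 7 of the 9 did not overlap between groups. Over all 22180 genes 14.5% were called, 7.34% higher and 7.15% lower, and 51.8% did not overlap. The genes were picked with results of these arrays known, so nothing is read from their count.

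Islr was nearly constant on the Pax7-GFP arrays and far from the ES arrays. Its signal was 5.89, 5.44 and 5.83 on ES replicates 1, 2 and 3, and 12.00, 11.92 and 12.05 on Pax7-GFP replicates 1, 2 and 3. The groups were separated by a gap of 6.03, and the range within the Pax7-GFP group, 0.131, was the smallest of the 9 genes. The range within the ES group, 0.451, was the largest of the 9. These ES signals lay near the array medians, so the fold of Islr is uncertain at its low end. The log2 fold change was 6.27 (moderated SE 0.13, 95% confidence interval 5.98 to 6.56), a 77.1-fold difference, given as a description with no test because this value chose the gene. It ranked 3rd of 22180 genes, after Car3 at 6.66 and Capn6 at 6.56 and before Actc1 at 5.97 and Egr1 at 5.91.

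Over the 6 arrays, each gene centred on its own mean, the 5 profiles closest to Islr by Euclidean distance were those of Egr1 (distance 0.654), Capn6 (0.677), Lrrn1 (0.821), Actc1 (0.871) and Rtl3 (0.875). These ranked 5, 2, 6, 4 and 7 by log2 fold change, so all 5 were among the 7 largest rises. The distance is set mostly by the difference between groups, the same value by which Islr was chosen, so nearness to genes of like rise follows from the measure. Lrrn1 encodes a membrane protein with leucine-rich repeats and an immunoglobulin domain, as does Islr2.

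The sequence just before the annotated start is shown for Islr, for its chromosomal neighbour and family relative Islr2, and for Postn, because Islr and Islr2 lie side by side and differed widely in their change, and because Postn has a match to a named motif at one of its starts. Among the 9 listed genes, promoter entries were found for 3, Islr, Pdgfra and Postn. Each line gives the 250 bases before a RefSeq start (GRCm38.p6), 5′ to 3′ on the strand of the gene, with matches to the motifs searched in capitals. Islr lies at chr9:58158555-58158804 on the minus strand, Islr2 at chr9:58204320-58204569 on the minus strand, and the second of the 2 starts listed for Postn at chr3:54360857-54361106 on the plus strand. The annotated spans of Islr and Postn begin further upstream, and whether a longer transcript has an exon in these windows was not determined here.
Islr: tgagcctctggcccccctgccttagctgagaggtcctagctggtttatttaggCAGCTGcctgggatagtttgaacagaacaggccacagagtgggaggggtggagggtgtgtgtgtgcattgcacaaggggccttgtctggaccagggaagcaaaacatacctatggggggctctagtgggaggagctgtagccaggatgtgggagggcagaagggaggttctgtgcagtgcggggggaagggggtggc
Islr2: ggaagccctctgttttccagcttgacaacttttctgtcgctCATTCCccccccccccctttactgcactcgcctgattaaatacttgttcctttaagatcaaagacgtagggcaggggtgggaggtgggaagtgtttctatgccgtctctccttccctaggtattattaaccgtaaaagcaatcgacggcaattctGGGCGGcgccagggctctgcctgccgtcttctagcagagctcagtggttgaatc
Postn: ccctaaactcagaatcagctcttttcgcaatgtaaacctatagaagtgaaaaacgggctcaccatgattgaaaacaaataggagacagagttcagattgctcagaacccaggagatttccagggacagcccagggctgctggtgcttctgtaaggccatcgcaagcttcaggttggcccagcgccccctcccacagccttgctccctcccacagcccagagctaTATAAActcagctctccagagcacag

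The motifs searched on both strands were CAGCTG and CACCTG, E-boxes of the kind bound by basic helix-loop-helix factors, TATAAA, the TATA box, CATTCC, the core of the site bound by Tead factors, and GGGCGG, the GC box. No pair of matches overlapped in the printed windows. Islr held CAGCTG once, 197 to 192 bases before its start, a motif present in 13.0% of the 32851 promoter windows of this length. Postn held TATAAA 26 to 21 bases before its second start, present in 12.4% of windows. Islr2 held CATTCC (12.6% of windows) and GGGCGG (32.7%) at its first start and none of the 5 motifs at its other 2 starts. The windows of Pdgfra and of the first Postn start held none of them. These are matches of letters, not measured sites.

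Fap encodes fibroblast activation protein, a surface protease of activated fibroblasts. Its signal was 4.76, 4.90 and 4.65 on the ES arrays and 9.54, 8.70 and 8.94 on the Pax7-GFP arrays, in replicate order. All Pax7-GFP arrays lay at least 3.80 above all ES arrays, with replicate 1 the highest. Fap rose by 4.29 (SE 0.20), or 19.5-fold (limma, adjusted p = 8.47e-07 over all genes). Its ES signals lay under the array medians, and with every signal below 5 set to 5 the change was 4.06, so the fold is uncertain at its low end.

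**Figure D1:**
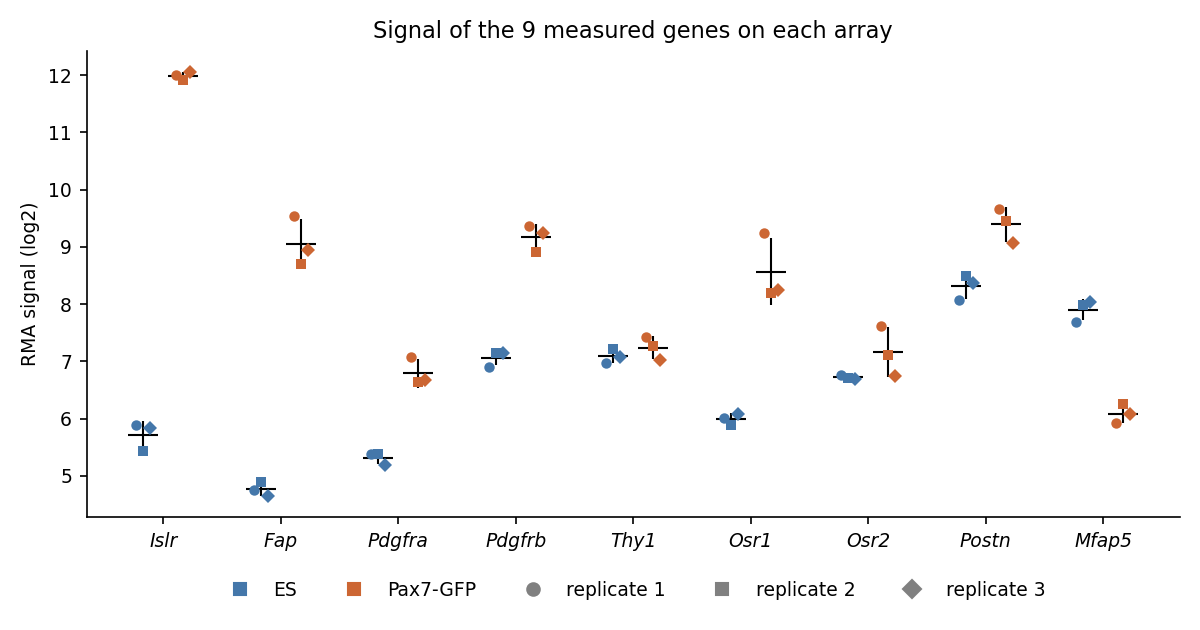
RMA signal (log2) of the 9 measured genes on each array, ES in blue and Pax7-GFP in orange, with marker shapes for replicates 1 to 3, black dashes for group means and bars of 1 SD (n = 3). Islr shows the widest gap between groups, 6.03, Thy1 and Osr2 overlap between groups, and Mfap5 is the only one of the 9 that is lower in Pax7-GFP cells.

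The receptors of platelet-derived growth factor (PDGF) both rose. PDGF dimers bind these tyrosine kinases, which drive the growth and migration of mesenchymal cells, with Pdgfra typical of fibro-adipogenic progenitors and Pdgfrb of pericytes and other perivascular cells. Pdgfra was at 5.37, 5.38 and 5.19 on the ES arrays and at 7.08, 6.63 and 6.67 on the Pax7-GFP arrays. Pdgfrb was at 6.91, 7.15 and 7.14 on the ES arrays and at 9.36, 8.92 and 9.24 on the Pax7-GFP arrays.

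Neither receptor overlapped between groups, and Pax7-GFP replicate 1 was the highest array for both. Pdgfra rose by 1.48 (SE 0.13, 2.79-fold, limma adjusted p = 4.23e-05), and Pdgfrb rose by 2.11 (SE 0.13, 4.31-fold, limma adjusted p = 4.97e-06). The ES signals of Pdgfra lay under the array medians, so its fold is uncertain at its low end. In the limma test against 2-fold the adjusted p of Pdgfra was 0.0456. Within arrays the log2 difference of Pdgfra from Pdgfrb ran from -1.96 to -1.54 in ES and from -2.58 to -2.28 in Pax7-GFP cells. The change of Pdgfra was therefore 0.63 smaller (difference -0.63, SE 0.16), with groups that did not overlap and an exact two-sided permutation p of 0.10, the smallest that 3 against 3 arrays allow.

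The other genes of the pathway on the list were the 4 ligands and Pdgfrl, a secreted receptor-like protein. Of these 5, 1 was called higher, 0 lower and 4 were not called, 2 of them short of 2-fold only. This was 20% called, near the 14.5% of all genes. The median change of the list was 0.90, against 0.024 over all genes. Pdgfrl rose by 1.63 (SE 0.14, limma adjusted p = 3.53e-05). The ligands that passed on p but were short of 2-fold were Pdgfb at 0.95 and Pdgfc at 0.90, named after their values were seen, while Pdgfa stood at -0.030 and Pdgfd at -0.27. Without ES replicate 1, or without Pax7-GFP replicate 2, 2 of the 5 were called.

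Osr1 and Osr2 are odd-skipped zinc finger factors of limb connective tissue and of embryonic progenitors of fibro-adipogenic cells. Osr1 was at 6.01, 5.88 and 6.08 on the ES arrays and at 9.24, 8.20 and 8.25 on the Pax7-GFP arrays. Osr2 was at 6.76, 6.72 and 6.69 on the ES arrays and at 7.61, 7.11 and 6.74 on the Pax7-GFP arrays. Osr1 did not overlap between groups, whereas Pax7-GFP replicate 3 of Osr2 lay within the ES range.

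Osr1 rose by 2.57 (SE 0.25, 5.95-fold, limma adjusted p = 6.96e-05). Osr2 had a log2 fold change of 0.44 (95% confidence interval -0.0072 to 0.88, limma adjusted p = 0.112) and was not called. Osr1 changed by 2.14 (SE 0.18) more than Osr2, and the within-array differences of the groups did not overlap (exact two-sided permutation p of 0.10, the smallest possible). Both factors were highest on Pax7-GFP replicate 1. Without that array Osr1 stood at 2.23 and Osr2 at 0.21. Without Pax7-GFP replicate 3 Osr1 stood at 2.73 and Osr2 at 0.64 (limma adjusted p = 0.0120 for Osr2), with Osr2 then short of 2-fold only.

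Thy1, the surface protein CD90 of fibroblasts and many mesenchymal cells, showed no difference beyond the spread. Its signal was 6.97, 7.21 and 7.08 on the ES arrays and 7.43, 7.27 and 7.03 on the Pax7-GFP arrays, so the groups overlapped. The log2 fold change was 0.15 (95% confidence interval -0.12 to 0.43, limma adjusted p = 0.364).

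Postn and Mfap5, both matrix proteins, went in opposite directions. Periostin, the product of Postn, is a fasciclin-domain protein secreted by activated fibroblasts and by developing connective tissue. Postn was at 8.07, 8.50 and 8.36 on the ES arrays and at 9.66, 9.45 and 9.07 on the Pax7-GFP arrays, with a gap of 0.57 between groups. It rose by 1.09 (SE 0.17, 2.12-fold, limma adjusted p = 0.000968), just past the 2-fold minimum. Without Pax7-GFP replicate 1 it stood at 0.95, without ES replicate 1 at 0.96 and with array weights at 0.96, all short of the minimum.

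Mfap5 encodes a glycoprotein of fibrillin microfibrils that is also used to mark adventitial fibroblasts. Its signal was 7.69, 7.99 and 8.04 on the ES arrays and 5.92, 6.25 and 6.08 on the Pax7-GFP arrays. All ES arrays lay at least 1.44 above all Pax7-GFP arrays. Mfap5 fell by 1.82 (log2 fold change -1.82, SE 0.13, limma adjusted p = 9.34e-06), a 3.54-fold difference.

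The listed genes other than Thy1 were set beside a relative in 6 pairs, of which 5 were tested. An additional pair, Ly6a with Ly6e, could not be formed. In all 5 tested pairs the within-array differences of the groups did not overlap, and the exact permutation p was 0.10, also after Benjamini-Hochberg adjustment over the 5 pairs, so no pair could pass 0.05 in this design. Fap and Dpp4, surface proteases of one family whose genes lie close together, had log2 fold changes of 4.29 and -2.12, a difference of 6.41 (SE 0.19). The low signals of both, Fap in ES and Dpp4 in Pax7-GFP cells, lay under the array medians. With every signal below 5 set to 5 the difference was 6.16. Mfap5 and Mfap2, both microfibril-associated glycoproteins, had changes of -1.82 and 3.20, a difference of -5.03 (SE 0.34). Postn and Tgfbi, both fasciclin-domain matrix proteins, had changes of 1.09 and 0.25, a difference of 0.84 (SE 0.12).

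Islr and Islr2 were compared as a description only. Islr2 went from 5.62 ± 0.051 to 6.27 ± 0.022 (SD, n = 3 each), a change of 0.65 (SE 0.076, limma adjusted p = 0.000202) that was short of 2-fold, so Islr changed by 5.62 (SE 0.13) more.

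**Figure D2:**
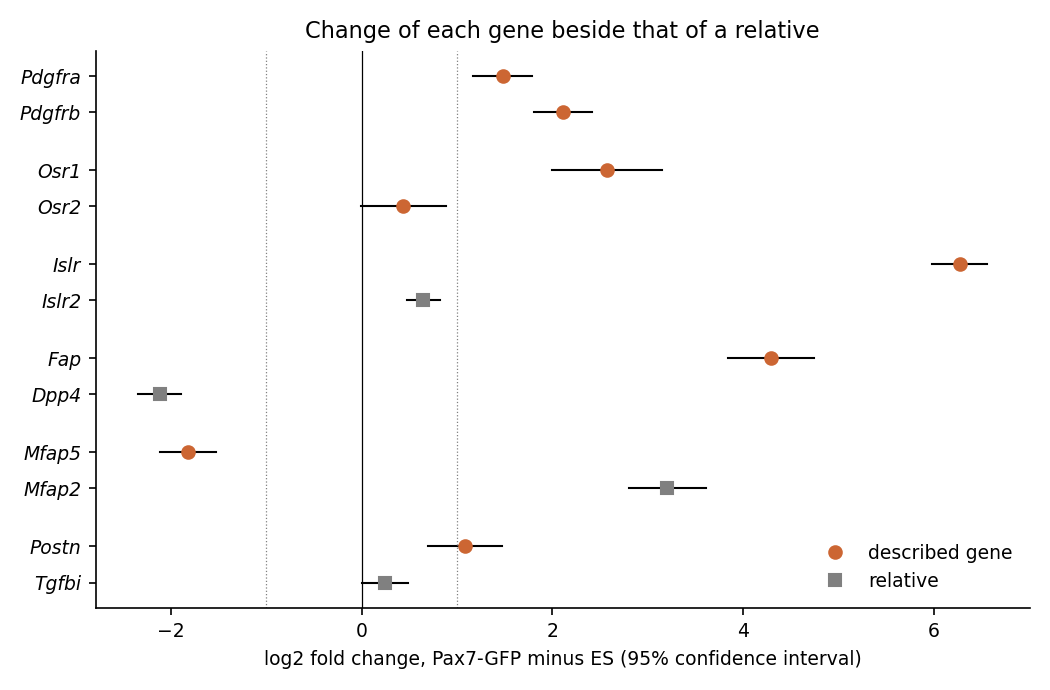
Log2 fold change (Pax7-GFP minus ES) with its 95% confidence interval for the described genes (orange circles) and relatives (grey squares), pair by pair, with dotted lines at a 2-fold difference. Fap and Dpp4, and Mfap5 and Mfap2, lie on opposite sides of 0, and Islr at 6.27 lies far from Islr2 at 0.65.

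Of 22 listed genes for proteins with leucine-rich repeats and immunoglobulin domains, 4 rose, 0 fell and 18 were not called, 5 of these short of 2-fold only. This was 18.2% called, near the 14.5% of all genes, and the list median was 0.23. The largest rises were those of Lrrn1, by 5.72 (SE 0.18), and Lrig1, a feedback inhibitor of growth factor receptors, by 2.76 (SE 0.10, limma adjusted p = 1.07e-07 and 2.65e-07). Of 8 genes listed for the prolyl peptidase family of Fap, 1 rose, 2 fell and 5 were not called, 1 of them short of 2-fold only. With 37.5% of so few genes called, in both directions, the list median was -0.089. Dpp8, a cytoplasmic dipeptidyl peptidase, rose by 1.45 (SE 0.099), Dpp4, also called CD26, fell by 2.12 (SE 0.097), and Dpp7, a lysosomal dipeptidyl peptidase, fell by 1.78 (SE 0.093), with limma adjusted p-values of 8.95e-06, 8.65e-07 and 1.92e-06.

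Ly6 and related membrane-anchored proteins are the relatives of Sca-1. Of 16 measured, 2 rose, 1 fell and 13 were not called, 6 of these short of 2-fold only. The share called, 18.8%, was near the 14.5% over all genes. The list median was 0.050. Psca rose by 2.72 (SE 0.20) and Ly6e by 1.02 (SE 0.16), while the complement regulator Cd59a fell by 1.46 (SE 0.31), with limma adjusted p-values of 1.31e-05, 0.000925 and 0.00549. Ly6e rose just past the 2-fold minimum, and Cd59a was at 8.03, 6.92 and 6.61 on Pax7-GFP replicates 1, 2 and 3. With arrays centred on their medians, with array weights, or without ES replicate 1, 2 of the 16 were called. Ly6 genes are close copies, and their probe sets may not separate them.

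Genes of microfibrils and elastic fibres, listed with the fasciclin-domain relatives of Postn, were set beside Mfap5 and Postn. Of 20 measured, 11 rose, 1 fell and 8 were not called, 5 of these short of 2-fold only. The share called was 60%, against 14.5% of all genes, and the list median was 1.02. Eln at 1.01, Ltbp4 at 1.04 and Emilin1 at 1.08 rose just past the 2-fold minimum, and 9 of the 20 were called, in either direction, without Pax7-GFP replicate 1. The fasciclin-domain genes Tgfbi, Stab1 and Stab2 stood at 0.25, 0.18 and 0.53 and were not called. Fbn2, the fibrillin of embryonic tissue, had a mean of 5.13 ± 0.044 in ES and 9.08 ± 0.36 in Pax7-GFP cells (SD, n = 3 each). It rose by 3.95 (SE 0.16) and Mfap2 by 3.20 (SE 0.18), with limma adjusted p-values of 5.11e-07 and 2.57e-06. Lox, which cross-links elastin and collagen, fell by 1.33 (SE 0.19, limma adjusted p = 0.000525).

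Transcription factors of limb and connective tissue were set beside Osr1 and Osr2. Of 18 measured, 2 rose, 1 fell and 15 were not called, 7 of these short of 2-fold only. The share called, 16.7%, was near that over all genes, 14.5%. The list median was 0.24. The paired-related homeobox genes Prrx1 and Prrx2, which mark limb and craniofacial mesenchyme, rose by 1.93 (SE 0.11) and 1.40 (SE 0.19), with limma adjusted p-values of 2.55e-06 and 0.000512. Ebf1, a factor of B cells and of adipogenic stroma, fell by 2.50 (SE 0.082, limma adjusted p = 1.44e-07).

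Markers by which fibro-adipogenic cells are defined were split, so the name of that cell type is not given to the sorted cells. Of 9 measured defining markers (10 with Ly6a), 4 were higher, namely Pdgfra, Cd34, Osr1 and Dcn, 1 was lower, Dpp4, and 4 were not called. Of all genes 7.34% were higher and 7.15% lower. Pi16 was at 5.12 and 5.16, Hic1 at 5.26 and 5.29 and Twist2 at 5.27 and 5.14 in ES and Pax7-GFP cells, with log2 fold changes of 0.035, 0.027 and -0.13, and Tcf7l2, at 0.72, was short of 2-fold only. The mean level of these 9 markers ran from 5.97 to 6.09 on the ES arrays and from 6.84 to 7.15 on the Pax7-GFP arrays. Of these markers, all measured ones but Pdgfra and Osr1 also belong to a wider list of connective tissue markers.

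In that wider list of 26 genes 7 rose, 4 fell and 15 were not called, 10 of these short of 2-fold only. The share called, in both directions, was 42.3%, against 14.5% of all genes. The list median was 0.71. Dcn, the proteoglycan decorin, rose by 3.03 (SE 0.21), and Cd34, a sialomucin of stromal, vascular and satellite cells, rose by 2.62 (SE 0.18), with limma adjusted p-values of 9.94e-06 and 8.91e-06. Eng and Nt5e, the surface proteins CD105 and CD73 by which cultured mesenchymal stromal cells are typed, fell by 2.79 (SE 0.12) and 2.24 (SE 0.12), with limma adjusted p-values of 6.61e-07 and 1.98e-06. Thy1, the third surface protein of that set, is described above. Their ES levels were 9.32 ± 0.17 for Eng and 8.21 ± 0.074 for Nt5e (SD, n = 3 each).

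**Figure D3:**
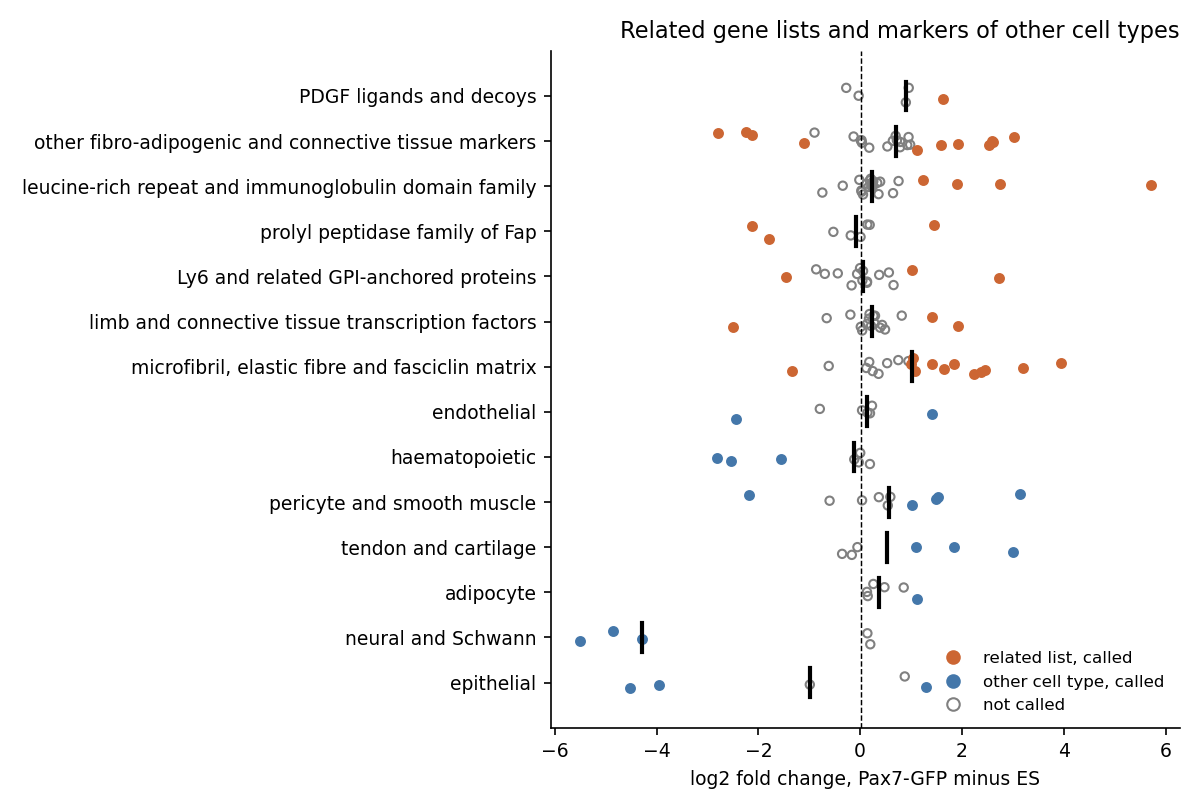
Log2 fold change (Pax7-GFP minus ES) of each measured gene in the related lists (orange where called) and in marker lists of other cell types (blue where called), open grey circles where not called, with a black bar at the list median and a dashed line at the median of all genes, 0.024. The list of microfibril, elastic fibre and fasciclin matrix has the highest median, 1.02, and neural markers the lowest, -4.30.

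Markers of other cells were measured on the same arrays, and their part in the values above was not tested. Of all genes 14.5% were called, 7.34% higher and 7.15% lower. The share called was 50% for pericyte and smooth muscle, 50% for tendon and cartilage and 16.7% for adipocyte markers, all short lists. Pericyte and smooth muscle markers had 4 of 10 higher and 1 lower, with a mean level of 7.25 to 7.32 on the ES and 7.74 to 8.01 on the Pax7-GFP arrays. Notch3, a receptor of mural and satellite cells, rose by 3.14 (SE 0.20, limma adjusted p = 6.53e-06), and Acta2, smooth muscle actin, by 1.53 (SE 0.099, limma adjusted p = 6.19e-06). Tendon and cartilage markers had 3 of 6 higher and 0 lower, with a mean level of 5.88 to 6.04 on the ES and 6.76 to 6.92 on the Pax7-GFP arrays, led by Sox9, which rose by 3.01 (SE 0.15, limma adjusted p = 1.57e-06). Adipocyte markers had 1 of 6 higher, Cebpa by 1.12 (SE 0.12, limma adjusted p = 9.70e-05), with a mean level of 4.80 to 4.85 and 5.27 to 5.38.

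Endothelial markers had 1 of 7 higher, Cdh5, and 1 lower, Pecam1, with a mean level of 5.69 to 5.72 on the ES and 5.48 to 5.59 on the Pax7-GFP arrays. Haematopoietic markers had 0 of 7 higher and 3 lower, with Laptm5 the largest change and Cd68 the highest level in Pax7-GFP cells, and a mean level of 6.44 to 6.51 and 5.39 to 5.62. Neural and Schwann markers had 0 of 5 higher and 3 lower, led by Stmn2, with Sox10 not called, and a mean level of 7.88 to 7.94 and 4.89 to 5.16. Epithelial markers had 1 of 5 higher, Krt8, and 2 lower, led by Epcam, with a mean level of 7.9996 to 8.11 and 6.53 to 6.73. The share called was 28.6% for endothelial, 42.9% for haematopoietic, 60% for neural and Schwann and 60% for epithelial markers, against 14.5% of all genes. RMA gives no marker a value of 0, so none can be called absent.

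Pax7-GFP replicate 1 gave the highest signal for most of the described genes. It was the highest of the 3 Pax7-GFP arrays for 7 of the 8 listed genes other than Islr, and the lowest for the other, Mfap5. It was the highest array for 33.8% of all genes and for 54.4% of the 1627 genes called higher, for 15 of the 26 connective tissue markers, for 12 of the 20 genes of the microfibril, elastic fibre and fasciclin list, and for 5 of the 18 transcription factors. Among the 5 genes used to check the labels and among the 5 epithelial markers it was also the highest for 3 each. The share was smaller in some other lists, 7 of 22 for the family of Islr and 2 of 8 for the family of Fap. It was 2 of 7 for haematopoietic and 1 of 6 for tendon and cartilage markers, where replicate 2 was the highest for 5 each. Above the group mean replicate 1 lay by 0.68 for Osr1, 0.48 for Fap, 0.46 for Osr2 and 0.29 for Pdgfra, but by 0.010 for Islr. The muscle regulator Pax7 was at 10.91, 10.65 and 11.15 on Pax7-GFP replicates 1, 2 and 3, Myf5 at 11.00, 10.75 and 10.84, and Myod1 at 11.15, 11.13 and 10.95. With 3 arrays the order of these genes among replicates has no test.

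The SD among the Pax7-GFP arrays differed between the genes. It was 0.59 for Osr1, 0.44 for Osr2 and 0.43 for Fap, against 0.17 for Mfap5 and 0.066 for Islr. The typical gene, by the median over all genes, varied by an SD of 0.084 in the ES group and of 0.14 in the sorted group.

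**Figure D4:**
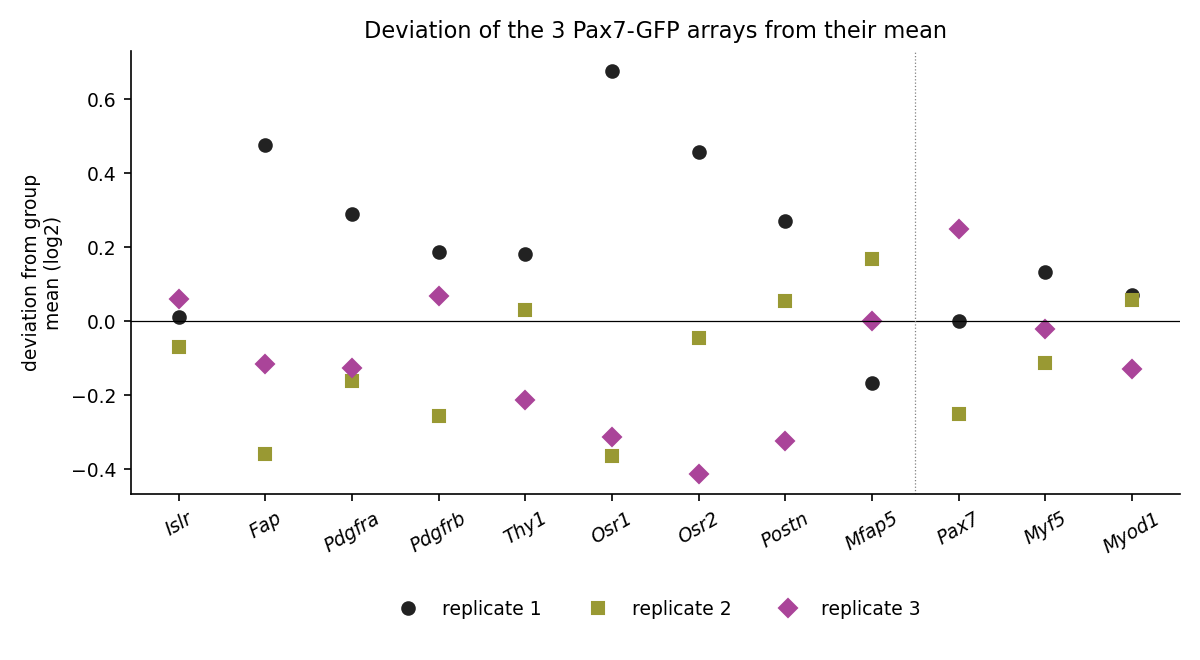
Deviation of each Pax7-GFP array from the mean of the 3 arrays (log2) for the 9 genes and, right of the dotted line, for Pax7, Myf5 and Myod1. Replicate 1 lies highest for 7 genes, from Fap to Postn, by up to 0.68 above the mean, while the Islr points lie within 0.131 of one another.

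The genes beside each listed gene on its chromosome were examined after the values had been seen. For up to 3 protein-coding genes on either side in the order of the GRCm38.p6 gene table, 47 neighbours of the 9 genes were measured, of which 3 were higher and 9 lower. These are 6.38% and 19.1% of the neighbours, against 7.34% and 7.15% of all genes. Beside Islr, the adjacent Stra6, a retinol transporter, rose by 2.29 (SE 0.16, limma adjusted p = 8.79e-06), whereas Islr2 on the other side was short of 2-fold and Pml, next to Islr2, fell by 1.40 (SE 0.25, limma adjusted p = 0.00204).

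Fap had 1 higher and 3 lower neighbours of 6. Its next gene Ifih1, an RNA sensor, rose by 1.34 (SE 0.097), while Dpp4 and Gca, a calcium-binding protein, fell by 2.12 (SE 0.097) and 2.18 (SE 0.12), with limma adjusted p-values of 1.22e-05, 8.65e-07 and 2.58e-06. Pdgfra lies in a row with the receptor genes Kit and Kdr. Kit, the stem cell factor receptor, fell by 3.42 (SE 0.097, limma adjusted p = 7.06e-08), and Kdr stood at 0.19 (limma adjusted p = 0.374), so Pdgfra rose, Kit fell and Kdr was not called.

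Mfap5 had 3 lower neighbours of the 5 measured and 0 higher. Gdf3, a growth factor of pluripotent cells, fell by 4.87 (SE 0.18), Rimklb by 3.53 (SE 0.24) and Phc1, a Polycomb subunit, by 1.59 (SE 0.12), with limma adjusted p-values of 2.80e-07, 7.58e-06 and 1.86e-05. No neighbour of Osr1, Osr2 or Postn was called, among 6, 4 and 6 measured.

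**Figure D5:**
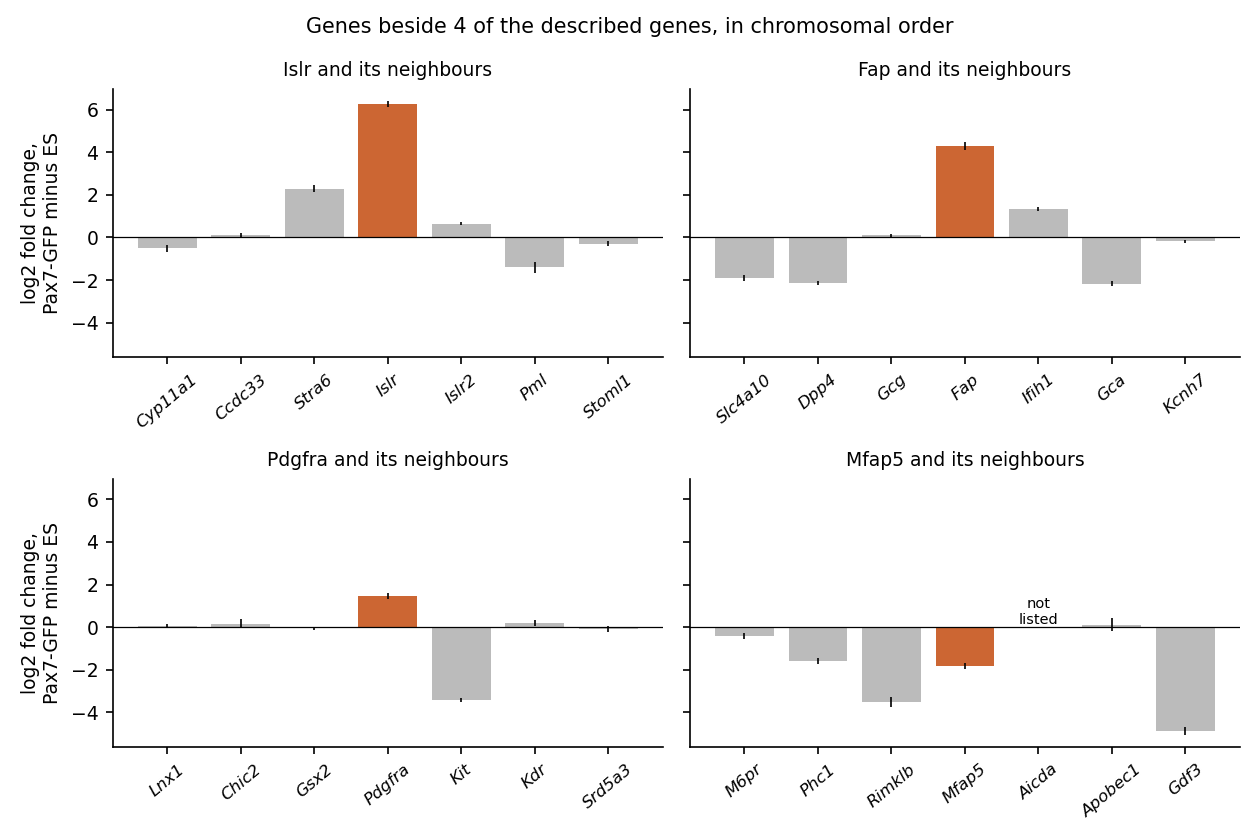
Log2 fold change (Pax7-GFP minus ES, bars from 0, error bars 1 SE) of Islr, Fap, Pdgfra and Mfap5 (orange) and of up to 3 protein-coding neighbours on either side (grey), in chromosomal order and not to distance. Stra6 rises beside Islr, Kit falls beside Pdgfra, and Gdf3, Rimklb and Phc1 fall near Mfap5.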

How the data were processed

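Total RNA of 3 ES and 3 Pax7-GFP samples was hybridised to 1 single-colour array each, as biotin-labelled cRNA from a double amplification, per the labels' protocols. The deposited values are log2 RMA signals, 1 per probe set, made with R 2.12.1, per the submitters' processing notes. RMA compresses folds near background, and the amplification can favour 3' ends, so folds are those of signals. Several other named genes, among them Psca, Fbn2 and Lrrn1, also had ES signals under the array medians. Their folds are likewise uncertain at the low end. The sources used here give neither the RMA options nor a genome build.

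Of 41345 rows, 23521 carried 1 gene symbol in the platform annotation. A gene was represented by its probe set with the highest mean, giving 22180 genes, none left out as dim. Groups were compared with limma 3.58.1 (lmFit, eBayes, two-sided) in R 4.3.3, with Benjamini-Hochberg adjustment over all genes. The fit was also run on simulated data with the same SD in both groups, unlike these arrays, and nothing is read from that run. Pairs of relatives were compared by their log2 difference within arrays with an exact permutation test.

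The genes, lists and pairs were chosen with earlier results of these data known. Named genes were the 10 members, the 2 ranked on either side of Islr, the 5 closest profiles, both genes of each pair, up to 2 called rises and 2 called falls per list, and per marker list the largest change and the highest Pax7-GFP level, with Pax7, Myf5, Myod1, Nanog and Sox2 as checks. Others named were chosen after their values were seen. Promoter sequences are those of RefSeq (GRCm38.p6). Alternatives changed the scaling, signal floor, dim-gene filter, probe set rule, unit tested, thresholds, variance prior, array weights, replicate block and arrays included.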

Additional observations from a re-analysis of the deposited data

How the results depend on the processing

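Across 18 alternatives the log2 fold changes of the 9 genes kept their direction, from 6.13 to 6.35 for Islr, 4.05 to 4.47 for Fap and 2.23 to 2.75 for Osr1, and Thy1 and Osr2 were not called in any of them. The call of Postn was lost in 5, with a value of 0.96 under array weights, 0.95 to 1.25 without single arrays (lost without ES replicate 1 and without Pax7-GFP replicate 1), and 1.09 with a 4-fold minimum and in the limma test against 2-fold (adjusted p from 0.000403 to 1 over its alternatives). Pdgfra at 1.48 and Mfap5 at -1.82 were also not called with a 4-fold minimum, by construction. The 6 differences between relatives kept their direction under the 10 alternatives run for them, and the planned pair of Ly6a with Ly6e was not run, since Ly6a had no value here.

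Other thresholds changed the counts because fewer or more genes could pass. With no minimum fold, 9126 of the 22180 genes were called, with a 4-fold minimum 1010, and in the limma test against 2-fold 1713. Members called without a minimum fold were 3 of 5 for the PDGF list, 21 of 26 for connective tissue markers and 9 of 22 for the family of Islr. They were 4 of 8 for the family of Fap, 9 of 16 for Ly6 relatives and 10 of 18 for transcription factors. In the microfibril, elastic fibre and fasciclin list 17 of 20 were called, and 29 markers of other cells. With a 4-fold minimum the members called were 0 for the PDGF list, 7 for connective tissue markers, 2 for the family of Islr and 1 for the family of Fap. They were 1 for Ly6 relatives, 1 for transcription factors, 5 for the microfibril, elastic fibre and fasciclin list and 11 for markers of other cells. In the limma test against 2-fold, 1 Ly6 relative and 7 genes of the microfibril list were called. Without single arrays the PDGF list had 1 to 2 members called and the microfibril list 9 to 13.

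Same-numbered arrays of the groups showed no clear shared deviation. Whether their samples were paired in culture or handling was not tested, because so few arrays cannot settle it. Deviations from the group means of same-numbered arrays correlated at -0.11, -0.22 and 0.0069 over genes, and with the replicate block 3213 genes were called against 3212, with no call among the 9 genes changed.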
